A study of Sus scrofa with 8 samples.

Results

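The genes described here encode the transforming growth factor beta (TGF-beta) and activin system of the pig endometrium, the inner lining of the uterus. They were chosen by name: the ligands TGFB1, TGFB2 and TGFB3, their receptors TGFBR1, TGFBR2 and TGFBR3, the activin subunits INHBA and INHBB, the activin antagonist FST (follistatin) and the intracellular inhibitor SMAD7. Of these 10 genes, 9 had a transcript among the 24139 transcripts (21064 genes) counted, and each of the 9 had 1 transcript, which passed the filter on low counts. INHBB matched no transcript and is not analysed here.

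Messenger RNA was measured by RNA-seq in 8 German Landrace gilts, young sows that had not reached puberty, on day 14 after insemination. To bring on ovulation all 8 were given the gonadotropins PMSG (750 IU) and, 72 h later, hCG (500 IU). The pregnant group (4 gilts) was inseminated with Pietrain semen at 24 h and 36 h after hCG, and the non-pregnant control group (4 gilts) with cell-free supernatant of semen from that boar. Samples of pregnant gilts were cut from the reddened sites where embryos attach and those of controls from matching positions, so that pregnancy and the choice of site cannot be told apart. For each animal the RNA of 3 positions along 1 horn was pooled into 1 library, and each library is 1 replicate. Levels are CPM, read counts scaled to a common library size after TMM normalization. In such bulk tissue fewer cells of a type and less RNA per cell cannot be told apart.

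TGF-beta is secreted bound to a latency peptide and held in the matrix by some LTBP proteins until integrins or other factors free it. The free ligand binds TGFBR2, which recruits and activates TGFBR1, and the co-receptor TGFBR3 (betaglycan) presents the ligand. Activins, dimers of the inhibin beta subunits, signal through their own receptors to the same SMAD2 and SMAD3, while FST binds activin and keeps it from its receptors. SMAD7 is induced by the pathway and blocks it at the receptor. In the uterus these ligands are known for roles in matrix turnover, immune tolerance and attachment of the conceptus (embryo plus membranes).

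Total counts per library ran from 28035007 to 41016150. The epithelial marker EPCAM lay between 90.02 and 206 CPM and the mesenchymal marker VIM between 1183 and 2209 CPM over the 8 libraries. Both markers were thus read in every library. In a principal component analysis of 500 variable transcripts the pregnant libraries scored 35.48 to 42.19 on component 1, control replicate 4 −27.81 and the remaining controls −46.07 to −42.32. Values without control replicate 4 are therefore also given where leaving it out ends or makes a call among the 9 genes or moves a count by more than 1.5 times.

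Of the 9 genes measured, 4 rose in pregnant endometrium (TGFB1, TGFB2, TGFBR1 and SMAD7) and 1 fell (FST) by edgeR's quasi-likelihood test at an adjusted p under 0.05. Among all 18783 transcripts tested, 11.2% rose, 10.1% fell and 21.3% changed in either direction. The groups did not overlap for these same 5 genes, and for 26.1% of all transcripts tested. The median log2 change (pregnant over control) was 0.04 over the 9 genes and −0.02 over all transcripts tested. Without control replicate 4, 4 genes rose and 2 fell, the added one being TGFB3. With library totals alone as scaling, which shifts the log2 changes of all transcripts by a median of −0.13, 3 rose and 2 fell, and over all transcripts 1661 rose and 3284 fell in place of 2111 and 1898.

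**Figure D1:**
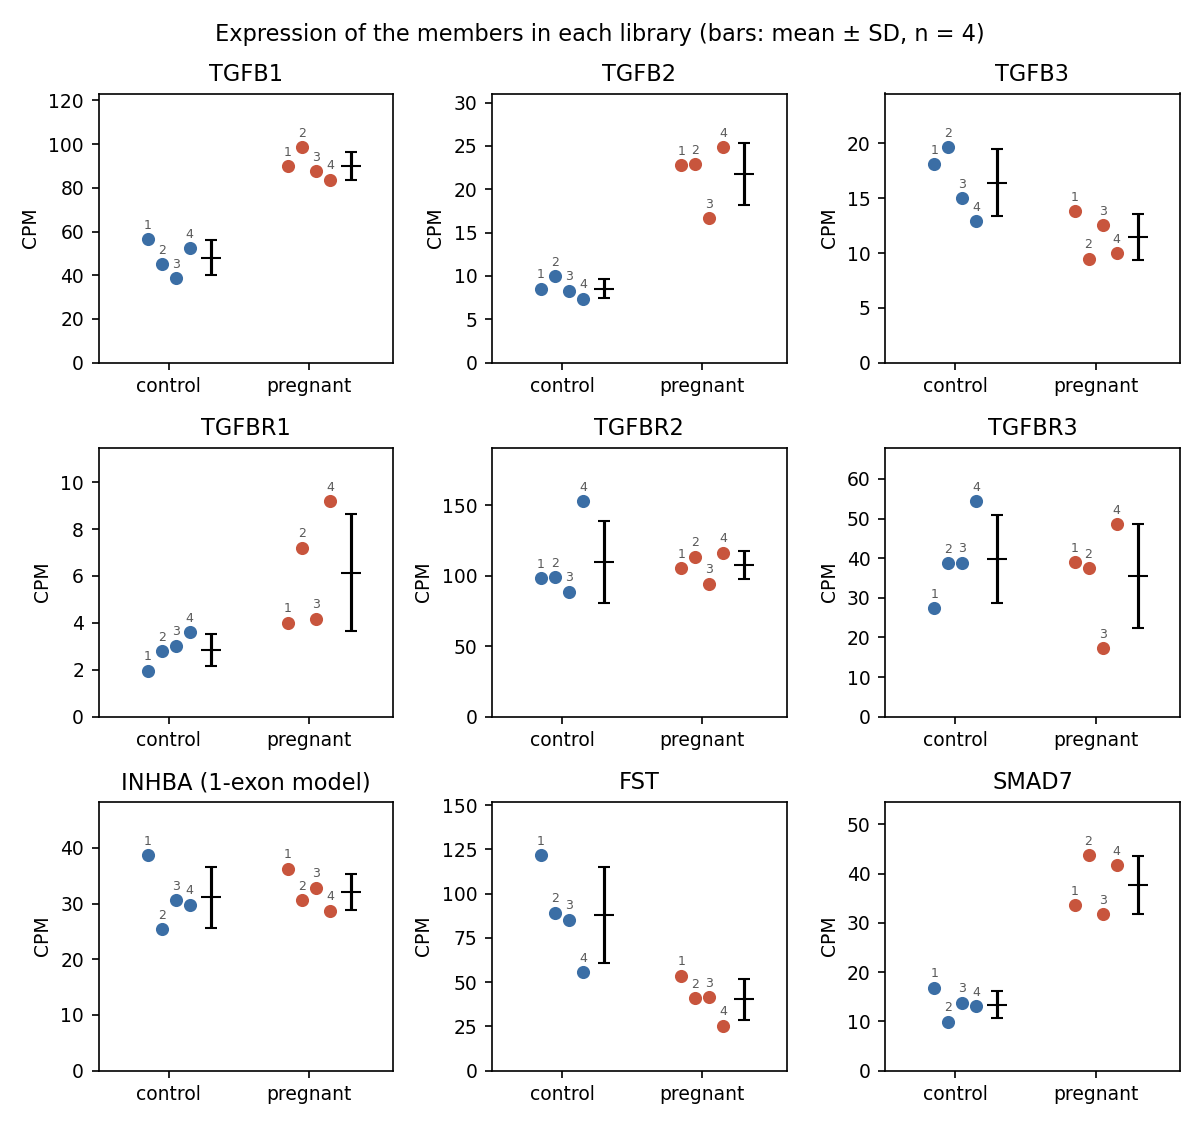
CPM of each gene (y axis, from 0) in the 4 control and 4 pregnant libraries (points, numbered by replicate), with mean ± SD beside them. TGFB1, TGFB2, TGFBR1 and SMAD7 lie higher and FST lower in every pregnant library than in any control, while TGFB3, TGFBR2, TGFBR3 and INHBA overlap.

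Among the ligands, TGFB1 (Entrez gene 397078, Sscrofa10.2 chromosome 6, 45127026 to 45141967, minus strand, 8 exons), the form made by many immune, stromal and epithelial cells, was read at 56.5, 44.9, 38.6 and 52.4 CPM in control replicates 1 to 4. In pregnant replicates 1 to 4 it stood at 89.99, 98.5, 87.5 and 83.7 CPM. The lowest pregnant library was thus above the highest control, and the pregnant libraries were close to each other. The mean rose from 48.1 ± 7.94 to 89.9 ± 6.26 CPM (SD, n = 4 each), a log2 change of 0.90 ± 0.14 (SE; edgeR adjusted p = 9.23e-04) or 1.87-fold.

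TGFB2 (Entrez gene 397084, chromosome 10, 10354222 to 10474880, plus strand, 7 exons), the ligand that depends most on TGFBR3 for receptor binding, was less abundant. Controls 1 to 4 held 8.55, 9.97, 8.30 and 7.39 CPM, and pregnant replicates 1 to 4 held 22.8, 22.9, 16.6 and 24.8 CPM. All pregnant values lay above all controls, with pregnant replicate 3 the lowest of its group. The rise was 1.35 ± 0.17 on the log2 scale (SE; edgeR adjusted p = 2.88e-04), or 2.55-fold, from 8.55 ± 1.07 to 21.8 ± 3.56 CPM (SD, n = 4 each).

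TGFB3 (Entrez gene 397400, chromosome 7, 105178639 to 105198867, minus strand, 7 exons), a ligand known from tissue fusion and scarless repair, did not follow the other ligands. It was at 18.1, 19.6, 15.0 and 12.9 CPM in controls 1 to 4 and at 13.8, 9.49, 12.5 and 9.98 CPM in pregnant replicates 1 to 4. The groups overlapped, because pregnant replicate 1 exceeded control replicate 4. The log2 difference was −0.52 (95% interval −0.93 to −0.11) with an edgeR adjusted p = 0.0684. It passed without control replicate 4 (−0.62, edgeR adjusted p = 0.0376), with library totals alone (0.026) and with DESeq2 (0.0452), and the range over the alternatives was 0.026 to 0.177.

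Compared per length, as CPM per kb of transcript, the summed level of the 3 ligands was 27.4 to 36.7 in controls and 52.7 to 59.7 in pregnant libraries. TGFB1 was the largest part in every library, at 60.6% to 72.2% of the sum in controls and 68.4% to 73.8% in pregnant animals. The share of TGFB2 was 12.3% to 16.2% in controls and 16.9% to 24.5% in pregnant animals. TGFB3 held 15.5% to 23.1% in controls and 6.15% to 9.31% in pregnant animals, without overlap. The ratio of TGFB1 to TGFB3 per length was 2.62 to 4.65 in controls and 7.46 to 11.9 in pregnant animals. In controls TGFB3 was above TGFB2 in each library, and in pregnant animals TGFB2 was above TGFB3 in each. These shares are made from the genes tested above and are given as a description.

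**Figure D2:**
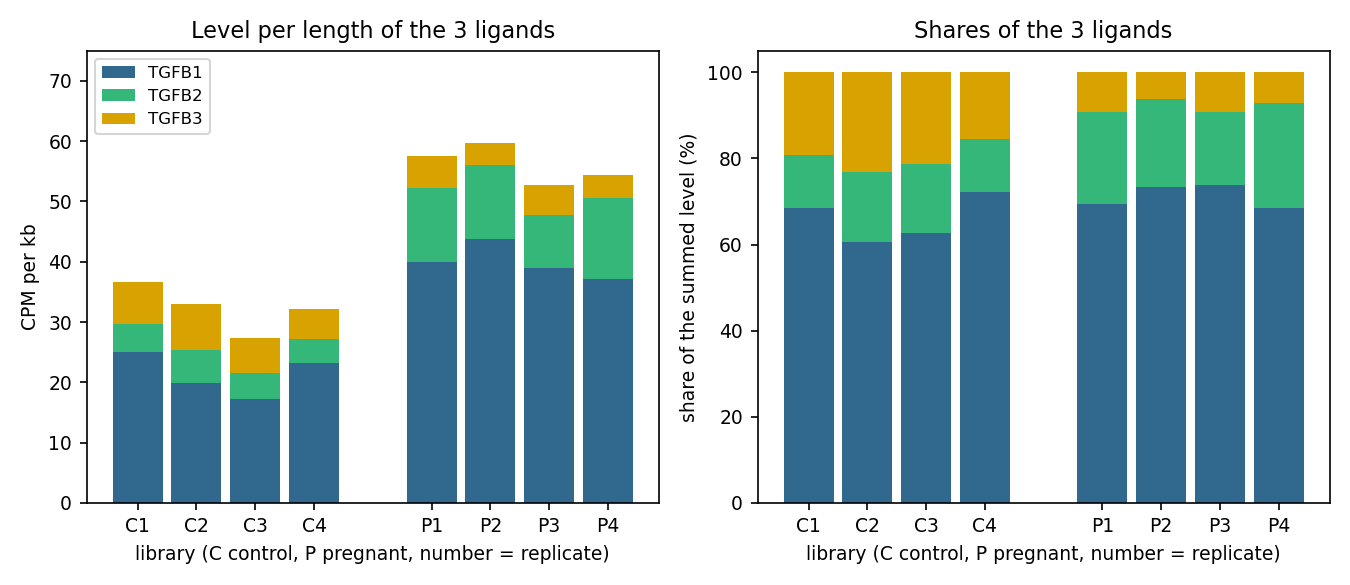
Stacked bars of TGFB1, TGFB2 and TGFB3 in each library, as CPM per kb of transcript (left) and as percent of their sum (right). The sum is 27.4 to 36.7 in controls and 52.7 to 59.7 in pregnant libraries, and the TGFB3 share is at most 9.31% in pregnant libraries and at least 15.5% in controls.

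The signalling receptors differed in level and in change. TGFBR1 (Entrez gene 396665, chromosome 1, 269090664 to 269145071, plus strand, 9 exons), the kinase that phosphorylates SMAD2 and SMAD3, was the lowest of the 9 genes, with 58 to 126 reads per control library and 113 to 301 per pregnant library. Its level was 1.97, 2.79, 3.02 and 3.61 CPM in controls 1 to 4 and 4.00, 7.21, 4.17 and 9.18 CPM in pregnant replicates 1 to 4. Pregnant replicates 1 and 3 sat just above the highest control, and replicates 2 and 4 well above it. The rise was 1.11 ± 0.31 on the log2 scale (SE; edgeR adjusted p = 0.0277), or 2.16-fold. The call was lost in 6 of 17 alternatives: without control replicate 1, 2 or 3, without pregnant replicate 2 or 4 (edgeR adjusted p = 0.0559 to 0.0871), and with library totals alone (0.0535), with a range over all alternatives of 0.00398 to 0.0871.

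TGFBR2 (Entrez gene 100038019, chromosome 13, 18702600 to 18712635, minus strand, 5 exons), which binds the ligand first, was among the most abundant of the genes. Controls 1 to 4 were at 98.2, 99.04, 88.6 and 152.8 CPM and pregnant replicates 1 to 4 at 105, 114, 94.4 and 116 CPM. Control replicate 4 stood apart from the other controls, and the groups overlapped. The log2 difference was −0.03 (95% interval −0.41 to 0.35, edgeR adjusted p = 0.925), and 0.17 without control replicate 4 (0.346).

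TGFBR3 (Entrez gene 397512, chromosome 4, 136671289 to 136820332, plus strand, 13 exons), the betaglycan co-receptor that also binds inhibin, had the largest SD in CPM among pregnant animals (13.1), whereas relative to the mean TGFBR1 varied more (coefficients of variation of 36.9% and 40.8%). It was at 27.3, 38.7, 38.8 and 54.3 CPM in controls 1 to 4 and at 38.9, 37.4, 17.3 and 48.5 CPM in pregnant replicates 1 to 4. The groups overlapped widely, with pregnant replicate 3 the lowest and control replicate 4 the highest of the 8 libraries. The log2 difference was −0.16 (95% interval −0.80 to 0.48, edgeR adjusted p = 0.734), and it was 0.02 without control replicate 4 and 0.07 without pregnant replicate 3. The ratio of TGFBR3 to TGFBR1 per length was 9.78 to 11.5 in controls and 3.17 to 7.41 in pregnant libraries.

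In the activin branch the clearest difference was in the antagonist. FST (Entrez gene 445002, chromosome 16, 34779039 to 34784065, plus strand, 6 exons) was at 122, 89.2, 85.3 and 55.6 CPM in controls 1 to 4 and at 53.6, 40.9, 41.4 and 25.4 CPM in pregnant replicates 1 to 4. The groups did not overlap, but the lowest control (replicate 4) and the highest pregnant library (replicate 1) were nearly level. FST fell by 1.12 ± 0.26 on the log2 scale (SE; edgeR adjusted p = 0.0104), or 2.18-fold, from 87.9 ± 27.05 to 40.3 ± 11.6 CPM (SD, n = 4 each). The fall passed with each of 17 other settings (edgeR, DESeq2 or limma adjusted p = 4.24e-04 to 0.0323).

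The FST model shares 396 of its 1023 exonic bases with a model on the opposite strand (Entrez gene 100622982), and the library kit does not mark strand. That model had 1160 to 2202 reads in controls and 467 to 1023 in pregnant libraries, against 1940 to 3588 and 831 to 1566 for FST. With every read of the opposite model taken off, FST kept 780 to 1386 reads in controls and 364 to 629 in pregnant libraries. FST then fell by 1.17 ± 0.25 (SE; edgeR adjusted p = 0.00822). The opposite model itself had fewer reads in every pregnant library than in any control. Taking its reads off therefore cannot tell which model the fall belongs to.

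The row that carries the INHBA identifier (Entrez gene 397093), the subunit of activin A, was nearly level. It was at 38.7, 25.4, 30.6 and 29.8 CPM in controls 1 to 4 and at 36.2, 30.6, 32.8 and 28.7 CPM in pregnant replicates 1 to 4, within the control range in each pregnant library. The log2 difference was 0.04 (95% interval −0.28 to 0.37, edgeR adjusted p = 0.868). In the deposited annotation this model is a single exon of 1763 bp on chromosome 12 (55481492 to 55483254, plus strand), whereas the INHBA gene of mammals is known to be spliced. Whether these reads come from activin A messenger RNA was not tested. Per length FST, with any reads of the opposite-strand model included, exceeded this row 3.21 to 6.05 times in controls and 1.52 to 2.55 times in pregnant libraries.

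SMAD7 (Entrez gene 100521305, chromosome 1, 108087683 to 108117204, minus strand, 4 exons), the inhibitory SMAD, had the largest log2 change of the 9 genes. It was at 16.8, 9.97, 13.8 and 13.03 CPM in controls 1 to 4 and at 33.55, 43.7, 31.7 and 41.7 CPM in pregnant replicates 1 to 4. The lowest pregnant library was well above the highest control. SMAD7 rose by 1.49 ± 0.18 on the log2 scale (SE; edgeR adjusted p = 2.73e-04), or 2.81-fold, from 13.4 ± 2.81 to 37.7 ± 5.92 CPM (SD, n = 4 each). Of all transcripts tested, 92.5% had a smaller absolute log2 change.

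**Figure D3:**
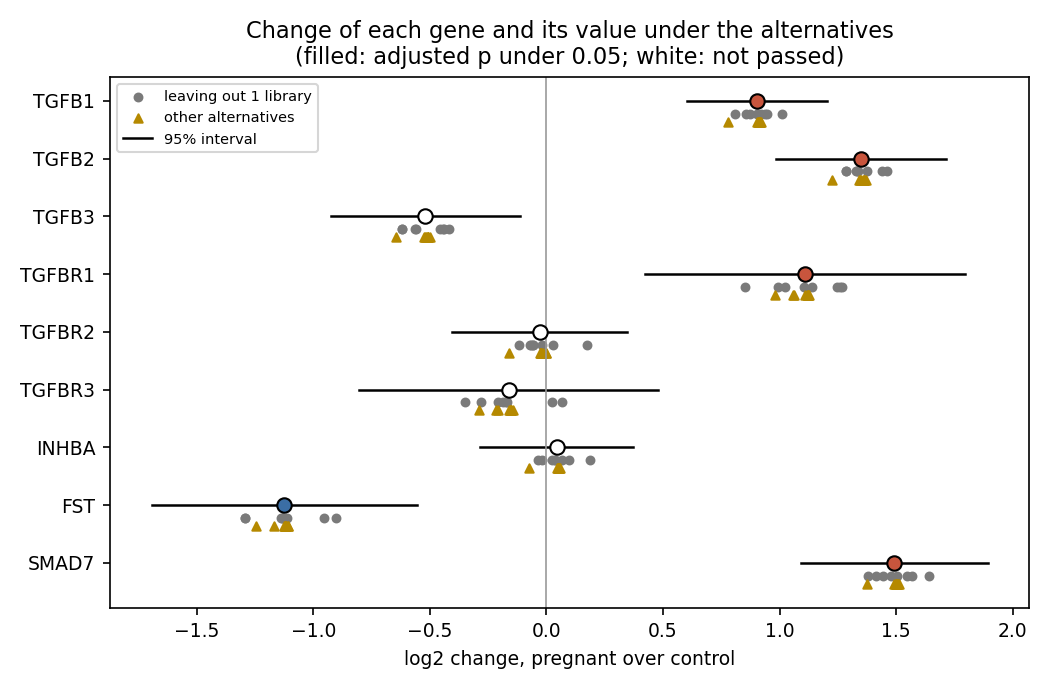
Log2 change of each gene, pregnant over control (large points, filled where the adjusted p is under 0.05), with its 95% interval. Grey points leave out 1 library each and triangles are the other alternatives. SMAD7, TGFB2, TGFB1 and TGFBR1 lie right of 0 and FST left of 0 in every alternative, while TGFBR2, TGFBR3 and INHBA fall on both sides.

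In order of mean level per length in controls, the genes were FST (85.9 CPM per kb), TGFBR2 (74.6), TGFB1 (21.4), INHBA (17.7), TGFBR3 (17.4), TGFB3 (6.36), SMAD7 (4.86), TGFB2 (4.58) and TGFBR1 (1.63). The ranges of FST and TGFBR2 overlapped, as did those of TGFB1, INHBA and TGFBR3 and those of TGFB3, SMAD7 and TGFB2 between neighbours. Clear steps without overlap stood between TGFBR2 and TGFB1, between TGFBR3 and TGFB3, and between TGFB2 and TGFBR1. In pregnant libraries the order was TGFBR2 (73.1), TGFB1 (39.96), FST (39.4), INHBA (18.2), TGFBR3 (15.5), SMAD7 (13.6), TGFB2 (11.7), TGFB3 (4.44) and TGFBR1 (3.52). FST moved from the top to a level like that of TGFB1, which was above it in 2 of 4 libraries. TGFB3 was above TGFBR1 in 2 of 4 as well. The ranges of neighbours in pregnant libraries overlapped, except between TGFBR2 and TGFB1, between FST and INHBA, and between TGFB2 and TGFB3. TGFBR2 exceeded TGFBR1 per length 34.8 to 59.2 times in controls and 15.02 to 31.3 times in pregnant libraries. Some models may lack parts of the transcript, so that levels per length between genes are approximate. The level of FST may also include reads of the opposite-strand model. With every read of that model taken off, FST kept 780 to 1386 reads in controls over 1.023 kb, against 2670 to 5336 over 1.47 kb for TGFBR2. Per length FST was then below TGFBR2 in every control, so its lead in controls depends on counting those reads. Its place among the other genes without those reads was not computed.

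**Figure D4:**
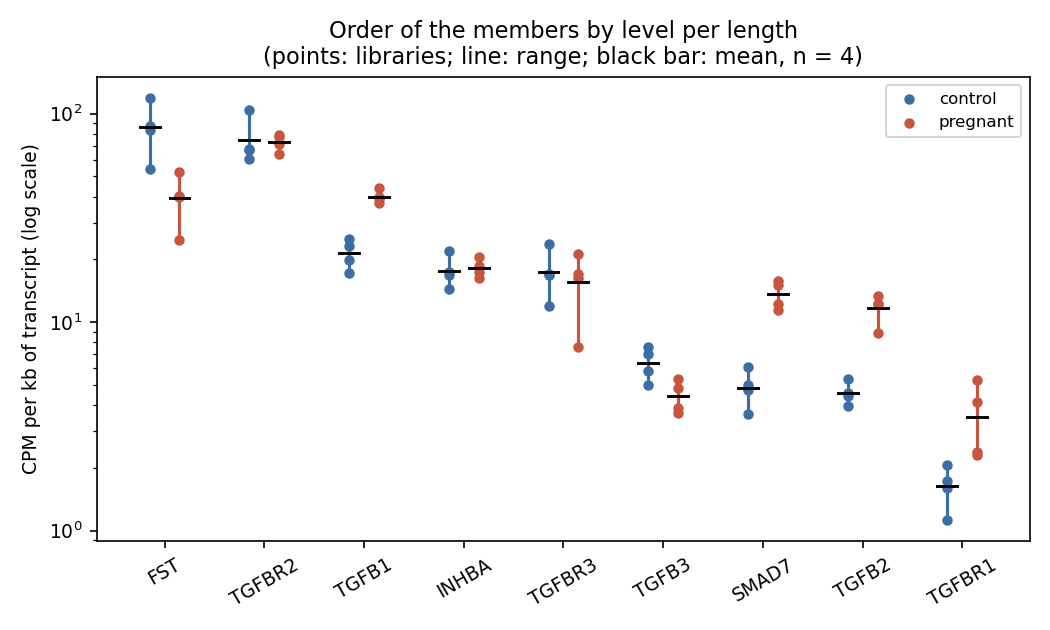
Level of each gene in CPM per kb of transcript on a log axis, ordered by the control mean. Points are libraries, lines their range and black bars group means (n = 4). FST, with any reads of the opposite-strand model included, leads in controls at 85.9. TGFBR2 leads in pregnant libraries at 73.1. TGFBR1 has the lowest mean in both groups, with a range that overlaps that of TGFB3 in pregnant libraries.

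Transcripts of the genes listed under latency and activation of TGF-beta changed in both directions. Of 15 tested genes of latency and activation, 4 rose and 2 fell (40%, against 21.3% of all transcripts tested). Their median log2 change was 0.17 against −0.02 over all transcripts. LTBP2, a matrix protein of the LTBP family, fell from 51.9, 57.95, 39.8 and 42.5 CPM in controls 1 to 4 to 26.7, 18.4, 18.07 and 22.8 CPM in pregnant replicates 1 to 4 (log2 change −1.16 ± 0.17 SE, edgeR adjusted p = 8.83e-04). LTBP3, which binds latent TGF-beta, also fell (−0.50 ± 0.15, edgeR adjusted p = 0.0336), a call lost when control replicate 1 or 3, or else pregnant replicate 2, 3 or 4, was left out (0.0515 to 0.0962, and down to 0.00709 with the other settings). LTBP1, the classic carrier of latent TGF-beta, was at 19.5 ± 6.41 CPM in controls against 14.7 ± 2.73 CPM in pregnancy (SD, n = 4 each; edgeR adjusted p = 0.244).

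Both chains of an integrin that frees latent TGF-beta on epithelia rose. ITGAV went from 7.597, 17.3, 12.4 and 15.1 CPM in controls 1 to 4 to 35.6, 31.1, 27.9 and 52.4 CPM in pregnant replicates 1 to 4 (log2 change 1.49 ± 0.27 SE, edgeR adjusted p = 0.0028). Its partner ITGB6 went from 4.05 ± 1.01 to 8.51 ± 1.84 CPM (SD, n = 4 each; log2 change 1.07 ± 0.23 SE, edgeR adjusted p = 0.00823). For both genes the lowest pregnant library was above the highest control. The beta chain ITGB8, on the same list, did not pass, and its groups overlapped. It was at 5.01 ± 1.21 CPM in controls and 3.98 ± 1.97 CPM in pregnancy (SD, n = 4 each; log2 difference −0.33 ± 0.32 SE, edgeR adjusted p = 0.505). NRROS, which anchors latent TGF-beta on macrophage-lineage cells, rose by 1.67 ± 0.26 (SE; edgeR adjusted p = 0.00105), and LRRC32, which does so on regulatory T cells and platelets, by 0.61 ± 0.15 (0.0143).

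In the same libraries 7 of 8 tested markers of macrophages and dendritic cells rose and 1 (MRC1) fell (100%, against 21.3% of all transcripts tested). The sum over the 10 such markers with a transcript was 377 to 687 CPM in controls and 1119 to 1473 CPM in pregnant animals. The fall of MRC1 was lost without control replicate 2 or 4 and without pregnant replicate 1, 3 or 4 (edgeR adjusted p = 0.0649 to 0.0841). Of 10 tested T and natural killer cell markers 8 rose (80%), with sums of 35.7 to 83.8 and 156 to 224 CPM. Of 7 tested platelet markers 1 rose and 1 fell (28.6%, near the 21.3% of all transcripts tested). The sum over the 10 platelet markers with a transcript was 58.2 to 74.7 CPM in controls and 75.4 to 83.2 CPM in pregnant animals. The platelet chemokine PPBP had 2 reads over all controls and 4 over all pregnant libraries. The platelet markers GP6 and GP1BA were close to the threshold: 2 rose without control replicate 3, and 2 fell without control replicate 4 or pregnant replicate 4. The macrophage markers ITGAX and MARCO were below the filter, and MARCO had 0 reads in pregnant replicate 3. The part of these cells in the levels of TGFB1, NRROS and LRRC32 was not tested.

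Of the other activin-branch ligands most were near the limit of detection. INHA, the inhibin alpha subunit, had a total of 33 reads in the 4 controls and 26 in the 4 pregnant libraries and was not tested. INHBE and INHBC, inhibin beta subunits best known from liver, had totals of 36 and 63 reads in the controls and of 144 and 122 in the pregnant libraries (log2 differences 1.93 ± 0.69 and 0.94 ± 0.38 SE, edgeR adjusted p = 0.0709 and 0.108). INHBE passed without control replicate 2 (2.81, edgeR adjusted p = 0.0221), with limma voom (2.84, 0.0386) and with DESeq2 (0.0241), within a range of 0.0221 to 0.168 over the alternatives. GDF11, a relative of myostatin that uses activin receptors, had a log2 change of −0.50 ± 0.16 (SE; edgeR adjusted p = 0.0443), which did not pass in 11 of 17 alternatives (range 0.022 to 0.127), among them leaving out any control library or pregnant replicate 2, 3 or 4. Myostatin itself (MSTN) had 4, 2, 0 and 2 reads in controls 1 to 4 and 4, 27, 10 and 36 in pregnant replicates 1 to 4, too few for the filter. Pregnant replicate 1 held no more than control replicate 1. Without the filter MSTN passed with edgeR (log2 change 3.13, adjusted p = 0.0223) and it also passed with DESeq2 (3.19, 0.00359). FSTL3, the other follistatin-like antagonist, matched no transcript.

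Receptors shared with activin and the signal-carrying SMADs gave no calls. Of 6 other receptors and co-receptors tested, edgeR passed 0 at the adjusted threshold and 1 at an unadjusted p under 0.05, while DESeq2 passed 0 and limma voom 0. The type I activin receptor ACVR1B was at 26.02 ± 4.89 CPM in controls against 34.5 ± 3.48 CPM in pregnancy (SD, n = 4 each; edgeR adjusted p = 0.0831), and passed without control replicate 4 (log2 change 0.54, edgeR adjusted p = 0.0218; range 0.0218 to 0.246). The type II receptor ACVR2A stood at 7.98 ± 2.37 and 8.61 ± 0.698 CPM, and ACVR2B at 1.499 ± 0.204 and 1.396 ± 0.626 CPM. The endothelial co-receptor ENG was at 394 ± 70.5 and 472 ± 107 CPM (edgeR adjusted p = 0.348), in libraries where 2 of 11 vascular markers rose (18.2%, near the 21.3% of all transcripts tested).

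Of 7 SMADs and cofactors edgeR passed 0, with 0 at an unadjusted p under 0.05, 0 by DESeq2 and 0 by limma voom. SMAD2, SMAD3 and SMAD4 had log2 differences of −0.02 ± 0.16, −0.20 ± 0.28 and −0.08 ± 0.12 (SE; edgeR adjusted p = 0.936, 0.66 and 0.684). SMAD2 stood at 36.2 ± 6.32 and 35.6 ± 5.59 CPM and SMAD4, the common partner, at 57.9 ± 7.78 and 54.8 ± 3.03 CPM (SD, n = 4 each). The coactivators EP300 and CREBBP had differences of −0.21 ± 0.11 and −0.18 ± 0.11 (SE), within overlapping groups.

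Of 8 other intracellular inhibitors tested 2 rose and 1 fell (37.5%, against 21.3% of all transcripts tested). PMEPA1, a TGF-beta-induced membrane protein that keeps SMAD2 and SMAD3 from the receptor, was at 39.3, 35.7, 40.5 and 26.5 CPM in controls 1 to 4 and at 119, 152, 120 and 136 CPM in pregnant replicates 1 to 4. It rose by 1.89 ± 0.16 on the log2 scale (SE; edgeR adjusted p = 2.47e-05), more than SMAD7, with a wide gap between the groups. SKIL, a corepressor of SMAD complexes, rose from 1.82 ± 0.712 to 4.33 ± 1.46 CPM (log2 change 1.24 ± 0.34 SE, edgeR adjusted p = 0.0245), a call lost without control replicate 3 or pregnant replicate 3 or 4 (0.0517 to 0.0785, and down to 0.00218 with the other settings). WWP1, a ubiquitin ligase that acts on the receptor, fell by 0.55 ± 0.18 (SE; edgeR adjusted p = 0.0473), with overlapping groups, and failed in 10 of 17 alternatives (range 0.0179 to 0.126), among them leaving out control replicate 2, 3 or 4 or pregnant replicate 1, 2 or 4. SMAD6, the inhibitory SMAD of the BMP branch, was at 10.3 ± 3.48 and 15.4 ± 5.03 CPM (edgeR adjusted p = 0.182).

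Genes known to respond to TGF-beta moved both ways. Of 18 tested, 5 rose and 4 fell (50%, against 21.3% of all transcripts tested) and 9 did not pass. The median log2 change was −0.18. The cell cycle inhibitor CDKN1A rose from 13.8 ± 4.05 to 57.01 ± 5.04 CPM (log2 change 2.04 ± 0.20 SE, edgeR adjusted p = 7.28e-05), and the AP-1 gene JUNB from 49.0 ± 17.03 to 105 ± 7.396 CPM (edgeR adjusted p = 0.00479). The matrix genes POSTN (1.22 ± 0.28), FN1 (0.84 ± 0.18) and TIMP3 (0.56 ± 0.14) rose. TIMP3 missed the threshold when pregnant replicate 2 or 4 was left out (edgeR adjusted p = 0.0586 and 0.056) and with library totals alone (0.0689; range over the alternatives 0.00155 to 0.0689).

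The matricellular gene CCN2, also called CTGF and a classic TGF-beta target, went the other way. It was at 2058, 2424, 1699 and 2690 CPM in controls 1 to 4 and at 740.2, 680, 1037 and 710.02 CPM in pregnant replicates 1 to 4, with no overlap (log2 change −1.49 ± 0.19 SE, edgeR adjusted p = 3.83e-04). TGFBI, a secreted protein named for its induction by TGF-beta, fell by 0.69 ± 0.15 (SE; edgeR adjusted p = 0.00708) and smooth muscle actin ACTA2 by 0.82 ± 0.18 (0.00748). The collagen gene COL3A1 fell by 0.67 ± 0.18 (0.0229), a call lost when control replicate 3, control replicate 4 or pregnant replicate 2 was left out (edgeR adjusted p = 0.051 to 0.0682, and down to 0.00138 with the other settings).

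In these libraries 4 of 8 tested smooth muscle markers fell (50%, against 21.3% of all transcripts tested), and ACTA2 is on that list too. The sum over the 8 was 879 to 1308 CPM in controls and 605 to 892 CPM in pregnant animals. The sum over the 9 tested stromal fibroblast markers was 24899 to 29655 and 16288 to 23806 CPM. COL3A1 (13534 to 16662 CPM in controls, 6870 to 11231 CPM in pregnant animals) and COL1A2 (7980 to 9358 and 5928 to 8387 CPM) made up most of it. Both are also on the list of TGF-beta response genes. The median log2 change of the 9 markers was 0.19. Of the 9, 3 rose and 2 fell (55.6%, against 21.3% of all transcripts tested), the latter COL3A1 and DPT. Only DPT of these fell without control replicate 3 or 4 or without pregnant replicate 2. Of the 3 that rose, LUM was lost without control replicate 2 or 3 and without pregnant replicate 2, 3 or 4 (edgeR adjusted p = 0.0583 to 0.095). It was also lost with library totals alone (0.122). Of 10 tested epithelial markers 1 rose (2 without control replicate 1, CLDN3 being added) and 4 fell (50%), with sums of 2451 to 3747 and 1860 to 2559 CPM. Of 11 conceptus markers with a transcript 4 were tested and 1, GATA3, rose (25%, near the 21.3% of all transcripts tested). The sum over the 11 was 5.21 to 9.48 CPM in controls and 9.46 to 12.99 CPM in pregnant animals. CYP19A2, CDX2 and POU5F1 had 0 reads in controls and 14, 4 and 10 in the pregnant group, those of CDX2 all in replicate 1 and those of POU5F1 all in replicate 3, and CYP17A1 had 11 and 7. Without the filter on low counts CYP19A2 passed too (edgeR adjusted p = 0.0436). The part of these cell types in the levels of FST, TGFB2, CCN2 and ACTA2 was not tested.

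**Figure D5:**
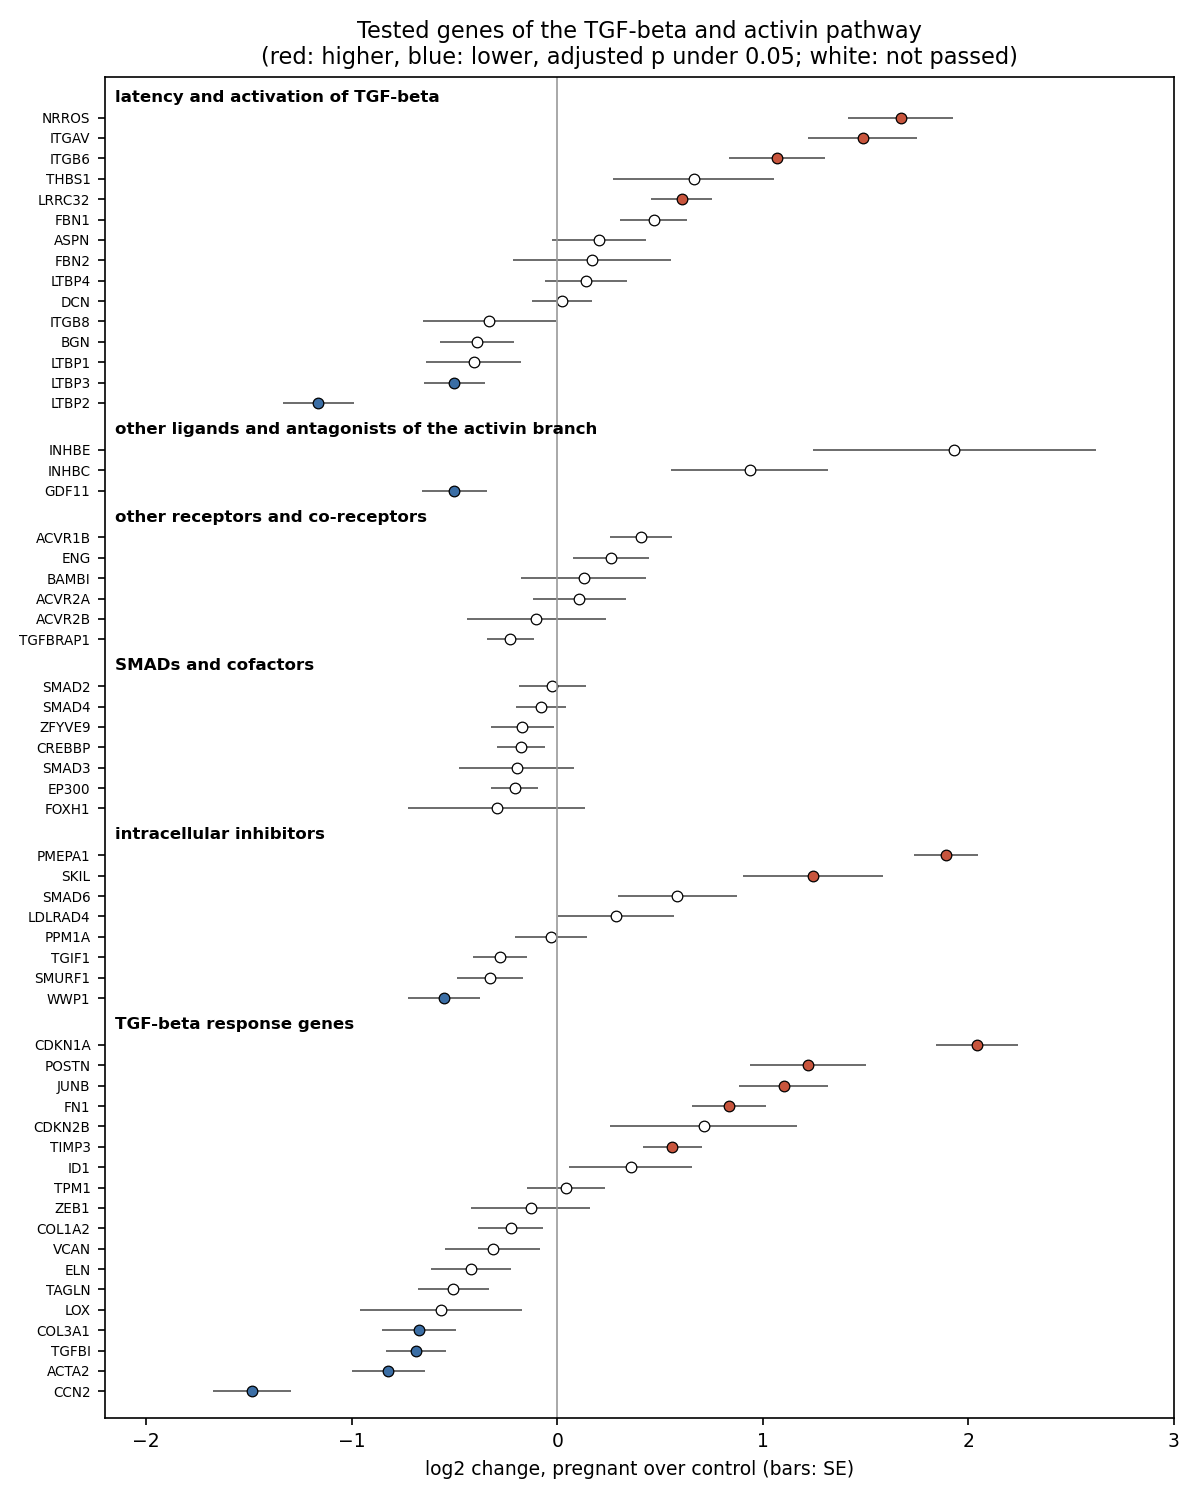
Log2 change, pregnant over control, with SE, of the 57 tested genes of the pathway lists, grouped by role (red higher, blue lower, white not passed). Of the 57, 11 rose and 8 fell. The SMADs and the other receptors hold no filled point, while the latency genes, inhibitors and response genes hold points on both sides of 0.

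Over all 57 tested pathway genes outside the 9 described first, 11 rose and 8 fell (33.3%, against 21.3% of all transcripts tested), with a median log2 change of −0.02. Without control replicate 4, 14 rose and 5 fell, and 5 or fewer also fell when control replicate 3, pregnant replicate 2 or pregnant replicate 4 was left out. For each of the 5 genes that changed, the transcripts with the most similar profile were sought by the root mean square difference of centred log2 CPM over the 8 libraries. They were PDE4A (0.0443) and MAPRE3 (0.0867) for TGFB1, ABCB10 (0.118) and PLA2R1 (0.141) for TGFB2, and PLD1 (0.153) and POSTN (0.185) for TGFBR1. For FST they were RNF208 (0.112) and AK1 (0.162), and for SMAD7 RFX5 (0.157) and PLCB2 (0.164). These likenesses hold the group difference and are given as a description.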

How the data were processed

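Per the file headers, the authors deposited raw counts of reads for each transcript of a merged assembly in 1 table per library, and exon positions in annotation files. Sscrofa10.2 is the build, and CASAVA 1.6, TopHat 1.4, Cufflinks 1.3 and DESeq are the tools, listed per the submitters' processing notes. How reads were counted is not given in the sources used here. Gene symbols were taken from RefSeq (assembly Sscrofa11.1), by Entrez ID for 19127 transcripts and by accession for 116, and 4896 stayed unnamed. Of 172 list genes 145 had a transcript.

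Tests used edgeR 4.0.16 under R 4.3.3 (filterByExpr with a minimum count of 10, TMM, robust quasi-likelihood fit, group as the only term), with Benjamini-Hochberg adjustment over 18783 transcripts. The filter left out 5356. SE are implied by the F statistic, and 95% intervals use the t distribution. CPM per kb divides by the exon length of the deposited model. Alternatives were other scalings, DESeq2 1.42.0, limma 3.58.1 (voom), no filter, a fit that is not robust, 1 transcript per gene, a replicate block and leaving out each library. One more, for FST, was chosen after seeing the data. The tests were checked on simulated counts. These had the same dispersion for all transcripts and far fewer changed transcripts than were called here. That check therefore does not measure error rates in these data.

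The genes and lists were chosen with earlier results of these data known. Named were all 9 measured genes, up to 4 genes of each pathway list with the smallest p, 11 further genes whatever their result, up to 2 genes of each marker list where a gene above moves with it, and the 2 nearest profiles. The text leaves some of these out. LTBP3, LRRC32, ITGB8, SMAD6, POSTN, FN1, TIMP3, ACTA2, COL3A1, EPCAM, VIM, MSTN, MRC1, DPT, LUM, CLDN3, GP6, GP1BA and the markers given with read numbers lie outside that rule and were named after their values were seen.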

Additional observations from a re-analysis of the deposited data

Results flagged for a closer look

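In 7 of 124 groups of 4 libraries (each named gene in controls and in pregnant animals) the highest or lowest library stood far from the other 3, by a gap beyond the critical value of Dixon's ratio. Chance alone does so in about 1 of 20 groups. TGFBR2 was at 152.8 CPM in control replicate 4, against 88.6 to 99.04 CPM in the other controls. LRRC32 was at 24.2 CPM in control replicate 3 (others 30.8 to 31.3), TGFBRAP1 at 41.4 CPM in control replicate 2 (33.5 to 34.8) and CREBBP at 171 CPM in control replicate 3 (209 to 213). In pregnant animals TGIF1 was at 71.8 CPM in replicate 2 (82.5 to 84.2) and CCN2 at 1037 CPM in replicate 3 (680 to 740.2). The cytotoxic marker GNLY was at 5.72 CPM in control replicate 2 (10.17 to 10.8).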

How the results depend on the processing

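Of the 9 genes, 7 kept direction and side of the threshold, or stayed short of it, in all alternatives, and TGFB3 and TGFBR1 did not. No called change reversed. The number of these genes that fell was 1, but 2 with DESeq2, 2 with library totals alone, and 1 to 2 when leaving out 1 library. Leaving out 1 library, 4 to 9 pathway genes fell in place of 8, and 1265 to 2017 of all transcripts in place of 1898, the lowest without pregnant replicate 2. With library totals alone 3284 of all transcripts fell. TMM factors were 0.966 to 1.075 in controls and 0.920 to 1.001 in pregnant libraries, and without them the log2 changes shifted by a median of −0.13. The cause of the difference in factors was not tested. Of 53 other named genes 44 kept their side of the threshold in every alternative. With the replicate number as a block 4 of the 9 genes rose and 1 fell, and 2070 and 1813 of all transcripts. The block ended the calls of COL3A1 (edgeR adjusted p = 0.0502), GDF11 (0.0683) and DPT (0.0612), so that 0 of 9 stromal fibroblast markers fell, and 2 epithelial markers rose. Libraries with the same number share only that number (correlations of their deviations −0.0932 to 0.186). Exon-union lengths gave the same levels per length. The lowest transcript per gene could not be used, since each gene had 1. Platelet markers called higher were 2 with 7 of the alternatives, and those called lower were 2 with DESeq2 and 3 with library totals alone. Low counts limit TGFBR1, INHA, INHBE and INHBC.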
